A study of Homo sapiens with 6 samples.

Results

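The 10 genes described here encode subunits of the human N-terminal acetyltransferases, the enzymes that cap the first residue of most newly made proteins with an acetyl group. They were taken from the 18999 listed features by gene name: NAA10, NAA15, NAA16, NAA20, NAA25, NAA30, NAA35, NAA38, NAA40 and NAA50. NAA50 was chosen because its RNA was far lower with miR-203a in this very comparison, so its values are a description with no test, and the other 9 genes were taken by family. The study asked which RNAs respond to the microRNA miR-203a in MCF10A, an immortalised, non-tumorigenic human mammary epithelial line. Cells in both groups were transduced with the retroviral vector pMSCVpuro, kept under puromycin and grown in medium with horse serum, epidermal growth factor, insulin, cholera toxin and hydrocortisone. In one group (3 libraries) the vector carried pre-miR-203a, and in the other (3 libraries) it was empty. The labels call the sample total RNA but their extract protocol describes an AGO2 immunoprecipitation before mRNA purification, and which of these applied could not be settled. Nothing states that the 3 libraries of a group came from separate cultures, so each p-value reflects the spread among these libraries alone, and that spread may be technical.

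N-terminal acetyltransferases act mostly on the ribosome while the protein is being made. NatA joins the catalytic subunit NAA10 to the large auxiliary subunit NAA15, which anchors it to the ribosome, and acts on small residues exposed once the first methionine has been removed. NAA16 is a paralog of NAA15. NAA50 binds NatA to form NatE and acetylates proteins that keep their methionine. NatB (NAA20 with NAA25) and NatC (NAA30 with NAA35 and NAA38) also act on retained methionines but read different second residues, and NatD (NAA40) modifies histones H4 and H2A. In human cells and in Drosophila, loss of NAA50 has been linked to defects of sister chromatid cohesion.

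The vector's product, the mature miR-203a-3p, is shown because its seed defines the matches searched below. The letters are from RefSeq (GRCh38.p14, chr14:104117469-104117490, + strand), and capitals mark the seed, bases 2 to 8.
miR-203a-3p: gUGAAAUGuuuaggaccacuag

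Sites of the seed in 3′ UTRs were sought as an 8mer (CATTTCAA), a 7mer-m8 (CATTTCA), a 7mer-A1 (ATTTCAA) or a 6mer (ATTTCA), on the sense strand only, and each match was counted once, under the longest form. Of the 10 genes, 3 hold an 8mer or a 7mer-m8 in their longest annotated 3′ UTR, against 22.8% of 10187 tested genes. The windows below, from GENCODE 29 transcripts on GRCh38, are shown because they are the strongest forms of match in the family, and capitals mark the match.
NAA50 7mer-m8, chr3:113719787-113719816, − strand: atttctataacCATTTCAcctggactatct
NAA30 first 7mer-m8, chr14:57409890-57409919, + strand: aagtatactaaCATTTCAcacaaaacctgc
NAA30 second 7mer-m8, chr14:57414523-57414552, + strand: gaatttgaaatCATTTCActtctaaatgag
NAA25 8mer, chr12:112027444-112027473, − strand: actaaatgtagCATTTCAAttagatccagc

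Total reads over the listed features ran from 7632063 to 35084590 per library. In each group library 3 stood furthest from the others, with a chi-square per feature of 36.7 to 88.4 in the pairs that include a library 3 against 11.1 and 19.2 between libraries 1 and 2. The hairpin feature MIR203A had 8, 21 and 22 reads in empty-vector libraries 1, 2 and 3 and 34827, 8476 and 20942 in pre-miR-203a libraries 1, 2 and 3. As a check of the cell label, EPCAM, CDH1, KRT5, KRT8 and KRT18 had FPKM of 29.3 or more in every library. The basal keratin KRT14 was low, at 0.724 to 1.84. Of the markers of other cell types, PTPRC and CD3E are not among the features listed. PECAM1, VWF and PDGFRB were at 0.25 or less in every library, and DCN, a stromal marker, was at 2.78 to 7.29. By library number, DCN had 5.68, 2.78 and 2.96 with the empty vector against 7.29, 3.53 and 4.14 with pre-miR-203a, and its part in the results was not tested.

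NAA50 (ENSG00000121579; chr3:113716460-113746300, − strand), the catalytic subunit of NatE, had FPKM of 65.5, 66.5 and 63.0 in empty-vector libraries 1, 2 and 3. FPKM scales reads to the length of the feature and to the size of the library. In pre-miR-203a libraries 1, 2 and 3 its FPKM was 13.1, 19.1 and 10.8. Every empty-vector library lay above every pre-miR-203a library, and the empty-vector values were close together while those of the other group were spread. The reads behind these values numbered 6629, 15015 and 11641 against 1405, 2555 and 533. The mean was 65.0 ± 1.82 against 14.3 ± 4.24 FPKM (SD, n = 3 each), or 22.1% of the empty-vector level. After log2(FPKM + 1), a transform that understates changes of low features, the fitted log2 fold change was −2.14 ± 0.19 (SE), the fourth lowest of 11271 features tested. The authors' deposited table has −2.16 with an SE of 0.21 for the same contrast. Among the 3 pre-miR-203a libraries, library 2 had the lowest hairpin FPKM and the highest NAA50, and library 3 the most hairpin and the lowest NAA50. MIR203A had FPKM of 19005, 3699 and 24945 in these libraries, and with 3 libraries this order is only a description. NAA15, NAA16, NAA25 and NAA35 had the same order in these libraries, so it was not particular to NAA50. Hairpin FPKM does not give the level of the mature miR-203a-3p, which was not measured here. In bulk RNA, fewer cells that express a gene and less of its RNA per cell cannot be told apart. If the libraries hold AGO2-bound RNA, less of the RNA held by AGO2 cannot be told apart from these either.

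**Figure D1:**
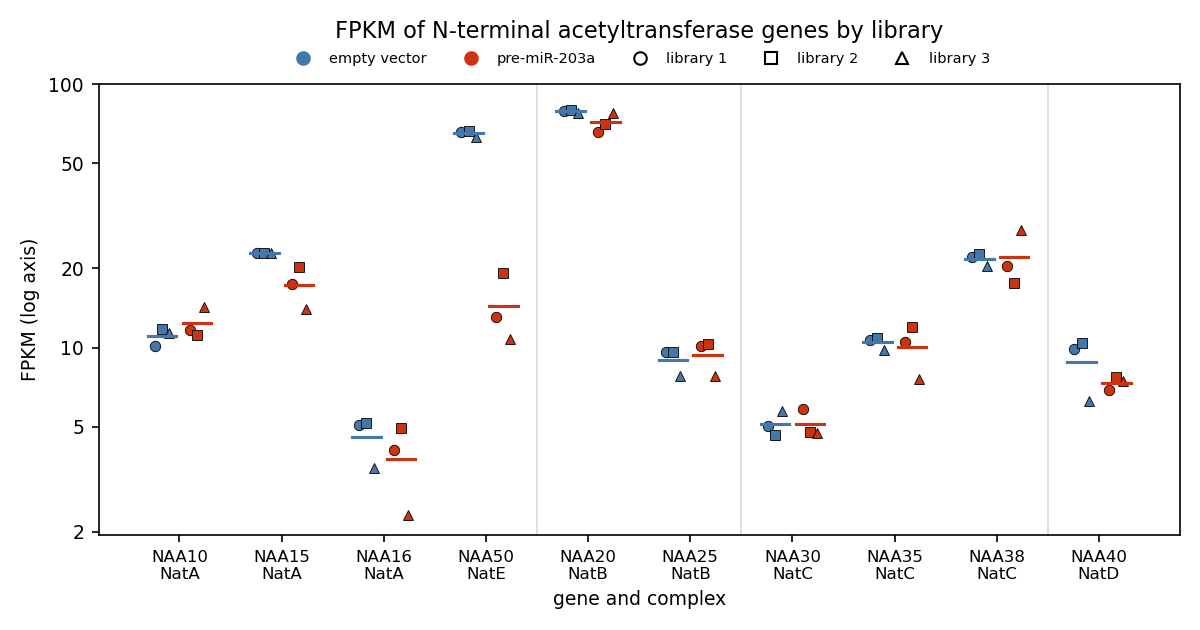
FPKM (log axis) of the 10 genes, grouped by complex, with blue for empty vector, red for pre-miR-203a, 1 symbol per library number and a bar at the group mean. NAA50 lies at 63.0 to 66.5 with the empty vector and at 10.8 to 19.1 with pre-miR-203a. Of the other 9 genes 8 overlap between groups, and over all features tested 37.5% do not overlap.

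None of the other 9 genes passed the threshold, an adjusted p under 0.05 in limma over all 11271 features. At an unadjusted limma p under 0.05 there were 0 higher and 1 lower, NAA15, and limma-voom on recovered reads also called 0. Over all features tested, 15.8% passed in either direction. The fitted log2 fold changes of the 9 lay between −0.40 and 0.14 with a median of −0.07, beside a median of −0.01 over all features tested. Without any 1 library and under the 7 other settings tried, the count stayed at 0.

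NAA15 (ENSG00000164134), the ribosome anchor of NatA and thereby of NAA50, had FPKM of 22.8, 22.9 and 22.8 against 17.5, 20.2 and 14 in libraries 1, 2 and 3 of the empty-vector and pre-miR-203a groups. The groups did not overlap, as for 37.5% of all features tested. Its log2 fold change was −0.40 ± 0.14 (SE; 95% interval −0.73 to −0.07; adjusted p = 0.10, limma). The authors' deposited table gives −0.38 with an adjusted p of 0.12 from DESeq2. As for NAA50, pre-miR-203a library 2 was the highest of its group and library 3 the lowest. The longest 3′ UTR of NAA15 has 4 7mer-A1 and 2 6mer matches and none of the longer forms. An antisense gene listed in the same table overlaps it, and without a stated strand setting reads of the pair cannot be told apart.

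NAA10 (ENSG00000102030), the catalytic subunit of NatA, had FPKM of 10.1, 11.8 and 11.4 against 11.7, 11.2 and 14.2 in libraries 1, 2 and 3. The groups overlapped, and the log2 fold change of 0.14 had a 95% interval of −0.15 to 0.44 (limma). It overlaps ARHGAP4 on the same strand, and how reads of the overlap were shared is uncertain. NAA16 (ENSG00000172766), the paralog of NAA15, had the lowest level of the family, at 5.06, 5.15 and 3.48 against 4.08, 4.95 and 2.32. Library 3 was the lowest of each group, and the log2 fold change of −0.24 had a wide interval of −0.80 to 0.31 (95%, limma). The proteins of NAA15 and NAA16, translated from the longest annotated coding sequences, have 866 and 864 residues and share 611 identical ones, 70.7% of the shorter protein. Every other pair of the 10 proteins shared 16% to 30.9% of the shorter one, and NAA50 (169 residues) and NAA10 (235 residues) shared 23.1%. The 30.9% was between the catalytic NAA20 and the auxiliary NAA25, and NAA50 shared 26.6% with the auxiliary NAA16. Values in this range thus do not show that 2 of these proteins are related.

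NatB showed no call. Its catalytic subunit NAA20 (ENSG00000173418) had the highest level of the family, with FPKM of 79.3, 79.7 and 77.7 against 65.9, 70.8 and 77.8. Pre-miR-203a library 3 reached the empty-vector range, and the log2 fold change was −0.14 (95% interval −0.39 to 0.11, limma). Its auxiliary subunit NAA25 (ENSG00000111300) had 9.63, 9.59 and 7.80 against 10.1, 10.3 and 7.77. Library 3 was again the lowest of each group, and libraries with the same number lay close to each other. The log2 fold change of NAA25, the family's only gene with an 8mer, was 0.05 (95% interval −0.29 to 0.39, limma).

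NatC was likewise without a call. The catalytic NAA30 (ENSG00000139977), with 2 7mer-m8 matches in its 3′ UTR, had FPKM of 5.03, 4.66 and 5.75 against 5.84, 4.80 and 4.73. The groups overlapped and the log2 fold change was −0.01 (95% interval −0.31 to 0.29, limma). The auxiliary NAA35 (ENSG00000135040) had 10.7, 10.9 and 9.78 against 10.5, 12.0 and 7.59, and the log2 fold change was −0.07 (95% interval −0.46 to 0.31, limma). The small subunit NAA38 (ENSG00000183011) had 22.1, 22.7 and 20.4 against 20.4, 17.6 and 27.9, with pre-miR-203a library 3 the highest of all. Its log2 fold change was −0.01 (95% interval −0.40 to 0.39, limma), and it overlaps CYB5D1 on the opposite strand. NAA40 (ENSG00000110583), which forms NatD alone, had 9.84, 10.4 and 6.28 against 6.87, 7.70 and 7.45. Here empty-vector library 3 lay below the whole other group, and the log2 fold change was −0.21 (95% interval −0.63 to 0.21, limma). Equal levels are not shown for any of these genes, since each interval allows a change as large as its wider bound.

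**Figure D2:**
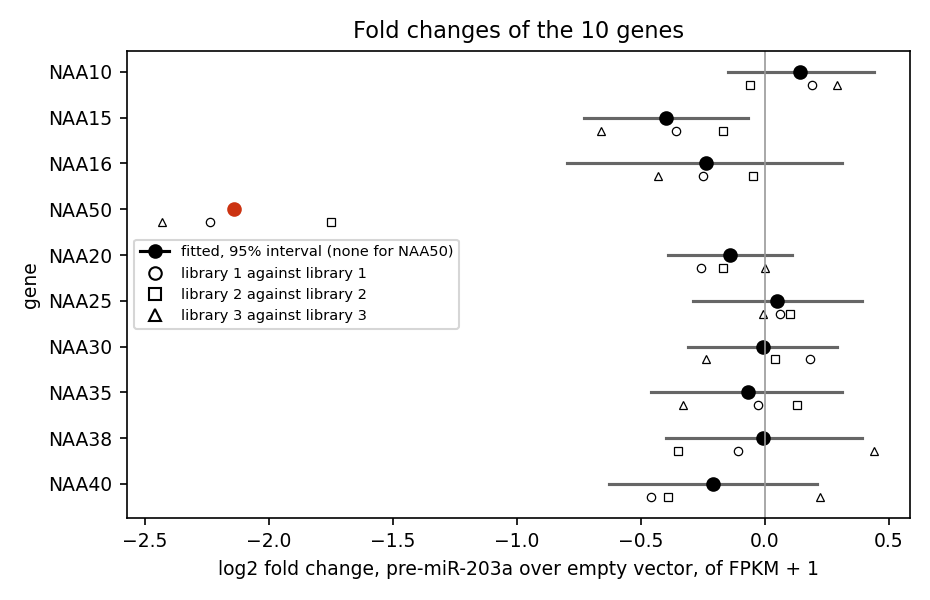
Log2 fold change of FPKM + 1, pre-miR-203a over empty vector, for each gene (filled points, with the 95% limma interval except for NAA50) and the 3 differences between libraries of the same number (open symbols). NAA50 had −2.24, −1.75 and −2.43, and no other gene went below −0.66 in any pair.

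In the empty-vector group the levels per length fell in the order NAA20 (78.9 ± 1.05 FPKM, SD, n = 3), NAA50, NAA15 (22.8 ± 0.0753), NAA38 (21.7 ± 1.21), NAA10 (11.1 ± 0.887), NAA35 (10.4 ± 0.584), NAA25 (9.01 ± 1.04), NAA40 (8.83 ± 2.23), NAA30 (5.15 ± 0.558) and NAA16 (4.56 ± 0.939). Neighbours in this order whose libraries overlapped were NAA10 with NAA35, NAA25 with NAA40, and NAA30 with NAA16. In the pre-miR-203a group NAA50 was at rank 4 and not at rank 2, behind NAA20, NAA38 and NAA15, and its libraries overlapped with those of NAA38, NAA15, NAA10 and NAA35. Among the 5 catalytic subunits NAA50 made up 38.6%, 38.4% and 38.4% of the summed FPKM in empty-vector libraries 1, 2 and 3. In pre-miR-203a libraries 1, 2 and 3 it made up 12.7%, 16.8% and 9.43%. The summed FPKM of the 5 was 169 ± 4.49 against 111 ± 6.31 (SD, n = 3 each). This sum includes NAA50, at a mean of 65.0 against 14.3, so the lower sum is not a separate result. Ranks and shares depend on the feature lengths that enter FPKM and are not amounts of RNA.

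Ratios of FPKM within a library set NAA50 against its partners. NAA50 to NAA10 was 6.48, 5.64 and 5.52 with the empty vector against 1.12, 1.69 and 0.764 with pre-miR-203a, by library number. NAA50 to NAA15 was 2.87, 2.90 and 2.76 against 0.747, 0.942 and 0.774. Both ratios use NAA50 and are given without a test. By FPKM, NAA50 thus lay above either NatA subunit with the empty vector. With pre-miR-203a it lay below NAA15 in every library and below NAA10 in library 3. FPKM of different genes depends on the feature length used. Reads and FPKM imply 6438 nt for NAA50, 9664 for NAA15 and 4616 for NAA10. The longest coding sequence and 3′ UTR of NAA10 have 705 and 745 nt. The ratios are thus no measure of relative RNA molecules, while their change between groups does not depend on length.

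Of 5 ratios among the other subunits, that of NAA15 to NAA10 was the only one whose groups did not overlap. It was 2.26, 1.94 and 2.0 against 1.5, 1.80 and 0.988, a log2 difference of −0.57. The exact two-sided permutation p was 0.1, the smallest that 3 against 3 libraries can give, and 0.5 after adjustment over the 5 ratios. Permutation within library numbers gave a p of 0.25, the smallest possible there. NAA16 to NAA15 was 0.20 ± 0.0407 against 0.215 ± 0.0427, NAA25 to NAA20 0.114 ± 0.0118 against 0.133 ± 0.0288, NAA35 to NAA30 2.05 ± 0.323 against 1.97 ± 0.476, and NAA38 to NAA30 4.27 ± 0.675 against 4.35 ± 1.34 (SD, n = 3 each). For these 4 the exact permutation p, with library numbers ignored, was 0.5 or more. With 3 against 3 libraries this test could not pass the threshold for any ratio.

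**Figure D3:**
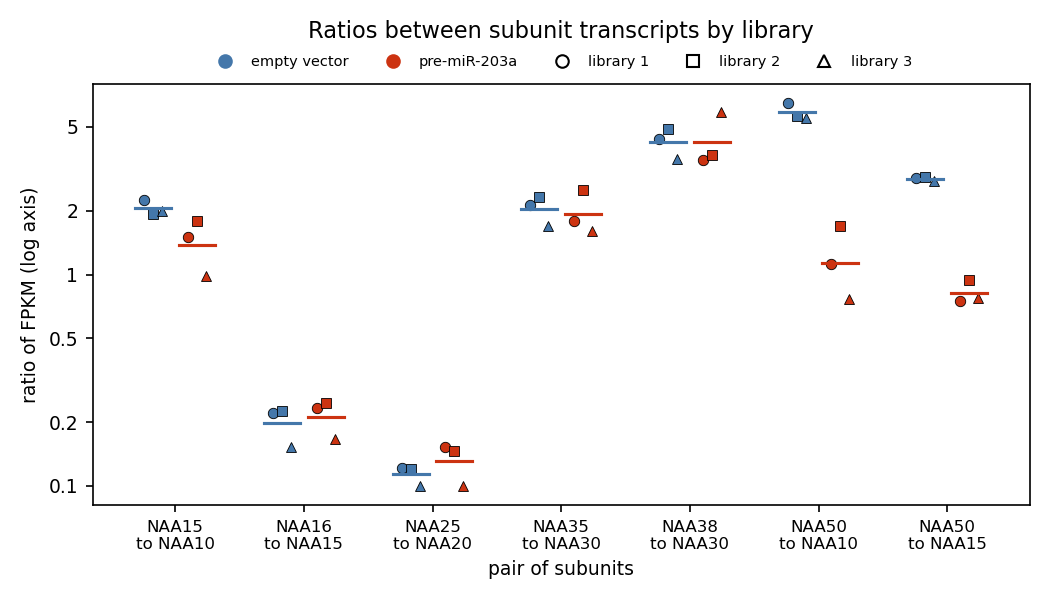
Ratios of FPKM between subunit transcripts in each library (log axis), blue for empty vector and red for pre-miR-203a, with bars at the geometric mean of the group. NAA50 to NAA10 and NAA50 to NAA15 have arithmetic means of 5.88 and 2.85 with the empty vector and 1.19 and 0.821 with pre-miR-203a, while 4 of the 5 ratios without NAA50 overlap between groups.

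The longest 3′ UTR of NAA50 has 5300 nt. Its 7mer-m8 covers nt 1955 to 1961 after the stop codon (chr3:113719799-113719805), and 2 of the gene's 7 annotated 3′ UTRs contain it. Closer to the stop codon, 2 7mer-A1 matches begin at nt 296 and nt 354 and are held by 5 and 4 of the 7. They are shown because they lie in more of the annotated ends of NAA50 than the longer match does.
NAA50 first 7mer-A1, chr3:113721446-113721475, − strand: attgtcaaataATTTCAAatttaatgtcct
NAA50 second 7mer-A1, chr3:113721388-113721417, − strand: aaacattgtatATTTCAAaagacaaaaaga

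The first 7mer-m8 of NAA30 begins at nt 385 and stands in all 4 of its annotated 3′ UTRs, and the 8mer of NAA25 begins at nt 2069 of the 2842 nt in its only one. A or T made up 60% of the 30 nt on each side of the NAA50 7mer-m8, 63.3% and 73.3% around the 7mer-m8 matches of NAA30, and 70% around the 8mer of NAA25. NAA25 and NAA30 hold a match at least as long as that of NAA50, and their fitted changes were 0.05 and −0.01. NAA15, with 7mer-A1 and 6mer matches, NAA16, with 3 6mers, and NAA40, with 1, had −0.40, −0.24 and −0.21, none past the threshold. NAA10, NAA20, NAA35 and NAA38, which have no match of any form, as is true of 50.1% of tested genes, had values from −0.14 to 0.14. Their longest 3′ UTRs are short, at 745, 497, 561 and 46 nt in that order. The median over tested genes with a 3′ UTR is 1404 nt, and a short UTR has less room for a match. Whether matches and changes are related was not tested. Which 3′ ends these cells use was not tested, and a match is not a binding site.

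**Figure D4:**
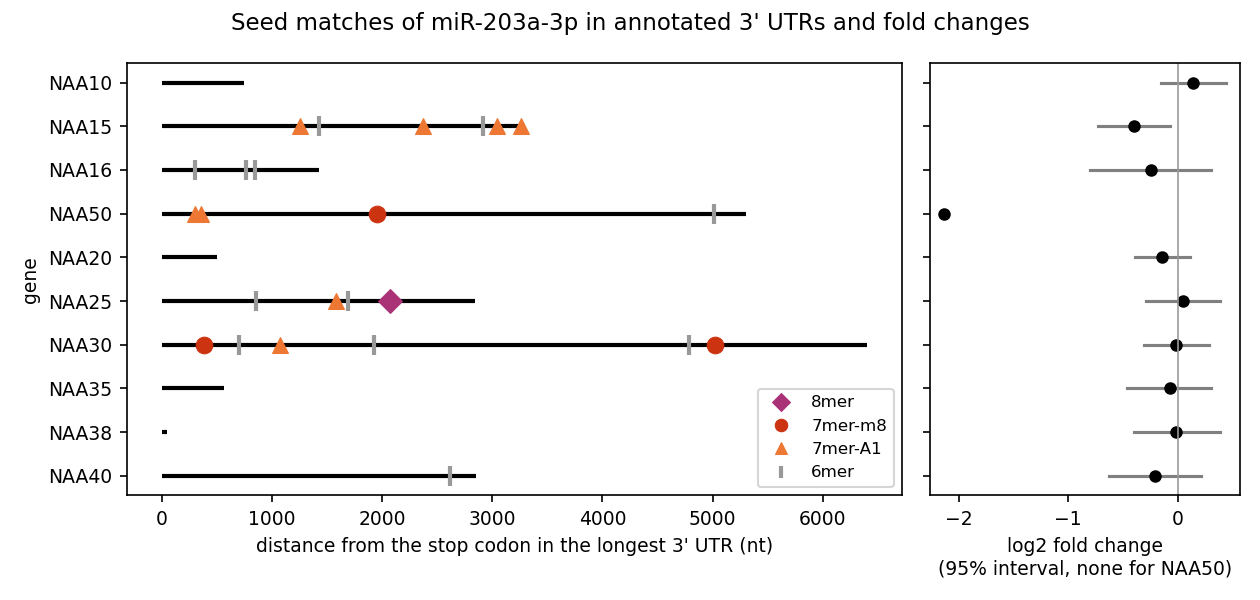
Left, each gene's longest annotated 3′ UTR as a line from the stop codon (nt), with seed matches of miR-203a-3p by form. Right, the log2 fold change of FPKM + 1 with its 95% limma interval (none for NAA50). NAA25 carries the only 8mer and NAA30 has 2 7mer-m8 matches, and both lie near 0.

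The position of NAA50 adds a further comparison. ATP6V1A, a catalytic subunit of the vacuolar proton pump, starts 719 bases from the annotated 5′ end of NAA50 and is read in the other direction. By library number its FPKM was 24.4, 26.4 and 27.6 with the empty vector and 33.5, 36.4 and 27.0 with pre-miR-203a. The groups overlapped through library 3, and limma gave a log2 fold change of 0.29 ± 0.13 (SE) with an adjusted p of 0.20. Without pre-miR-203a library 3 it was 0.41 with an adjusted p of 0.032 (limma). In every other setting tried the adjusted p of ATP6V1A was 0.16 to 0.54 (limma or limma-voom). USF3, the nearest listed gene on the other side, had 1.70, 1.72 and 2.02 against 2.30, 2.49 and 1.42 (log2 fold change 0.11 ± 0.16; adjusted p = 0.72, limma). SIDT1 and GRAMD1C, the next on either side, were under the filter and not tested. Their FPKM ranged over all libraries from 0.0237 to 0.114 and from 0.334 to 0.793.

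The 5 tested features most like NAA50 across the 6 libraries were MAD2L1, PRDX3, SPC24, MCM10 and TXNRD1. Likeness was the root mean square difference of log2(FPKM + 1) after each feature was centred on its own mean, and it ranged from 0.125 to 0.237. MAD2L1, a spindle checkpoint protein, had FPKM of 23.4, 21.9 and 21.2 against 4.54, 7.81 and 3.61, with the same order of the pre-miR-203a libraries as NAA50. PRDX3, a mitochondrial peroxidase, had 72.0, 73.5 and 68.8 against 14.1, 17.5 and 14.2. These features were picked for their likeness, so their values are a description. When any 1 library was left out, 3 to 5 of the 5 were again among the nearest.

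Of the remaining N-terminal acetyltransferase genes and the NatA partner HYPK, NAA60, NAA80 and NATD1 entered the fit. NATD1, which encodes a small protein with an acetyltransferase-like domain, had FPKM of 0.40, 0.283 and 0.445 against 1.38, 1.04 and 2.05, without overlap. It passed the filter only through the pre-miR-203a group, where it is high, so it had to differ, and its values are a description with no test. The authors' deposited table has a log2 fold change of 1.98 for it. Neither NAA60 nor NAA80 passed the threshold. NAA60, which acts on membrane proteins at the Golgi, had a mean FPKM of 5.70 against 7.56 (0.36 ± 0.14; adjusted p = 0.15, limma), and NAA80, which acetylates actin, which overlaps HYAL3 on the same strand, 7.18 against 7.80 (0.10 ± 0.18; adjusted p = 0.76, limma). HYPK, listed at 0.0168 to 0.272 FPKM, was not tested, and it overlaps SERF2 on the same strand. NAA11 is not among the features analysed here.

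Neither the enzymes of methionine removal and myristoylation nor the nascent polypeptide-associated complex gave a call. Over all features tested 15.8% were called, and lists this short would hold few. Of 5 tested genes of methionine removal and myristoylation 0 passed in limma, with 0 at an unadjusted p under 0.05 and 0 in limma-voom. METAP1, a methionine aminopeptidase, had a mean FPKM of 34.3 ± 1.58 against 29.8 ± 2.31 (SD, n = 3 each; −0.20 ± 0.11 on the log2 scale, limma adjusted p = 0.26), and NMT2, a myristoyltransferase, 5.18 ± 0.578 against 5.56 ± 0.372. Of 3 tested genes of the nascent polypeptide-associated complex 0 passed in limma, with 0 at an unadjusted p under 0.05 and 0 in limma-voom. BTF3, its beta subunit, had 165 ± 9.40 against 159 ± 1.56 FPKM, and BTF3L4 6.37 ± 0.470 against 7.41 ± 1.24. The median log2 fold change of both lists was −0.03.

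Of 14 tested genes of cohesin and its regulators, the machinery of sister chromatid cohesion, 6 were lower and 0 higher, beside 9.18% lower over all features tested. The median log2 fold change of the list was −0.54. SGO1, which protects cohesion at centromeres, had FPKM of 7.0, 6.03 and 7.50 against 1.38, 2.69 and 1.86, without overlap (log2 fold change −1.42 ± 0.18; adjusted p = 0.0043, limma). CDCA5, which encodes the cohesion factor sororin, fell from 28.6 ± 6.40 to 11.7 ± 1.76 FPKM (−1.21 ± 0.19; limma adjusted p = 0.0078), and ESCO2, the acetyltransferase of the cohesin subunit SMC3 in S phase, from 4.45 ± 0.614 to 1.61 ± 0.52 (−1.08 ± 0.17; limma adjusted p = 0.0083). These 3 genes are expressed mainly in dividing cells, and each stayed past the threshold without any 1 library. Whether the share of dividing cells differed, or whether these values are related to NAA50, was not tested. Of the ring subunits RAD21 fell from 49.2 ± 2.22 to 28.6 ± 7.25 FPKM (−0.79 ± 0.18, adjusted p = 0.023, limma). SMC1A (−0.63 ± 0.14, adjusted p = 0.025, limma) and STAG1 (−0.65 ± 0.17, adjusted p = 0.04, limma) were also lower. SMC3 (−0.73 ± 0.20, adjusted p rounding to 0.05, limma) and STAG2 (−0.45 ± 0.17, adjusted p = 0.13, limma) were not called. Also without a call were WAPL (−0.10), NIPBL (−0.15), PDS5A (−0.21) and PDS5B (−0.33). ESCO1 and MAU2 had positive values, 0.13 and 0.30 (adjusted p of 0.75 and 0.23, limma). Leaving out library 1 of either group or empty-vector library 2, the list had 3 lower genes and not 6, and RAD21 had an adjusted p of 0.080 to 0.085 (limma). Without empty-vector library 3 the adjusted p of RAD21 was 0.060 (limma). With TPM values the list had 4 lower genes, and with limma-voom 7.

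Of 11 genes of N-degron recognition, the ligases and amidases that read protein N-termini for degradation, 1 was lower and 1 higher, near the shares of 9.18% and 6.59% over all features tested, and the median was −0.02. UBR1, a ligase for basic and bulky N-termini, had FPKM of 6.45, 6.08 and 5.90 against 3.45, 3.81 and 2.53 (−0.76 ± 0.14; adjusted p = 0.013, limma). ZER1, a substrate receptor for N-terminal glycine, had 6.61, 7.68 and 7.08 against 11.6, 10.4 and 16.5 (0.74 ± 0.17; adjusted p = 0.027, limma). UBR1 missed the threshold when empty-vector library 1 or 2 was dropped (limma adjusted p of 0.064 and 0.051). ZER1 missed it when library 1 of either group, or empty-vector library 2 or 3, was dropped (limma adjusted p of 0.066 to 0.10). Of 9 tested acetyltransferases with the same GNAT fold as NAA50, 1 was lower, near the share of 9.18% over all features tested. It was HAT1, which acetylates new histone H4. HAT1 had 19.6, 18.4 and 21.1 against 10.5, 13.6 and 8.87 FPKM (−0.80 ± 0.16; adjusted p = 0.015, limma). Its call was lost when library 1 of either group or empty-vector library 3 was dropped (limma adjusted p of 0.052 to 0.062). The median of that list was 0.14.

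**Figure D5:**
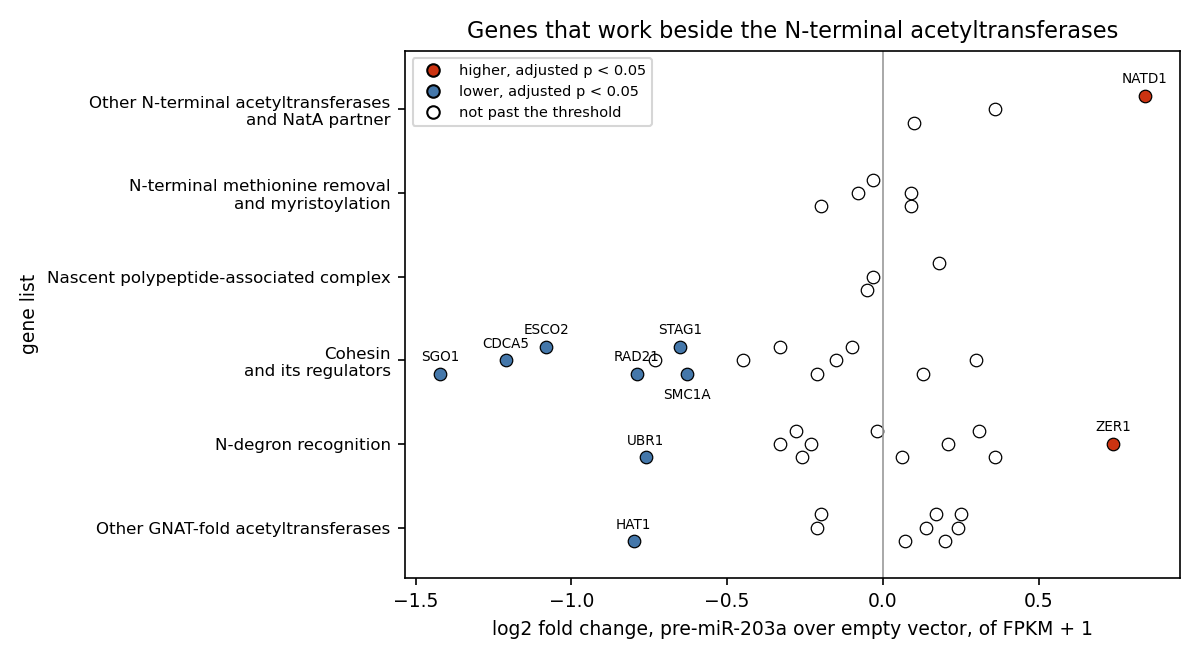
Log2 fold change of FPKM + 1, pre-miR-203a over empty vector, of each tested gene in 6 lists around the N-terminal acetyltransferases, with filled points for an adjusted p under 0.05 (limma). NATD1 is drawn filled but entered only through the group where it is high. The lower genes lie mostly in the cohesin list, 6 of 14, while no gene of methionine removal, myristoylation or the nascent polypeptide-associated complex is filled. Over all features tested 9.18% were lower and 15.8% passed in either direction.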

How the data were processed

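Genome build hg38, featureCounts 2.0.0 and DESeq2 1.28.1 are named, per the submitters' processing notes, while aligner, annotation release and strand setting are not given in the sources used here. FPKM values were deposited by the authors, and a second deposited table holds TPM values, a baseMean signal, log2 fold changes and p-values of their DESeq2 comparison, printed here with the sign reversed, as pre-miR-203a minus empty vector. No raw counts were among the files, so the test for normalised values was used. Limma 3.58.1 (R 4.3.3, eBayes with trend and robust variances) fitted log2(FPKM + 1) by group over the 11271 features that reached an FPKM of 1 in 3 or more libraries, with Benjamini-Hochberg adjustment over all of them. The fit was tested on simulated data, in which false calls made up a larger share of the calls than the adjusted p of 0.05 implies, so calls close to the threshold are less certain than their adjusted p states. Whole reads were recovered from FPKM and baseMean (100% within 0.01), and cover listed features of baseMean 0.955 or more only.

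Deviations of same-numbered libraries correlated at 0.433, 0.269 and 0.321. The labels state no shared batch, so whether these libraries are paired is uncertain. The limma results above leave the replicate number out, and a fit with it as a block is given below. The correlations between different numbers were −0.417 to 0.221.

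3′ UTRs, gene positions and coding sequences came from GENCODE 29, since neither coordinates nor a RefSeq protein table were used here. Proteins were aligned with Biopython 1.88 (global, BLOSUM62). The members and gene lists were chosen with earlier results of these data known. Genes named are the 10 members, up to 4 called genes per list (or the 2 of smallest p), the 5 features most like NAA50, the 2 listed neighbours on each side and MIR203A. The other tested cohesin genes, and NAA60 and NAA80, were named after their values were seen.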

Additional observations from a re-analysis of the deposited data

How the results depend on the processing

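The 9 genes other than NAA50 gave 0 calls in all 13 other settings, and NAA50 had log2 fold changes of −2.35 to −1.97. With the replicate number as a block, 1970 features passed instead of 1778 (848 higher, 1122 lower), and the block changed no call among the 10 members, the genes named by rule in the lists, USF3 and ATP6V1A. The cohesin count was again 6, and which genes made it up was not compared. Leaving out 1 library gave 745 to 2257 calls (323 to 919 higher, 422 to 1338 lower), the fewest without empty-vector library 1 (745), pre-miR-203a library 1 (883) and empty-vector library 2 (900), and TPM values gave 445 higher. The lists had, without 1 library, 3 to 7 cohesin genes lower, 0 to 2 N-degron genes higher and 0 to 1 lower, 0 to 1 other N-terminal acetyltransferase higher and 0 to 1 GNAT-fold gene lower. The N-terminal acetyltransferase counted is NATD1, which is no support since it entered through the group where it is high. With FPKM of 1 or more required in all libraries it was not tested, which left 0 higher in its list, and with no filter 0 N-degron genes were higher (ZER1, adjusted p = 0.052, limma).

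Fitted changes near 0 took the other sign: NAA25 with TPM (−0.04), NAA30 with median-of-ratios scaling (0.02) or limma-voom (0.00), and NAA38 with that scaling (0.03). Without 1 library NAA25 ranged from −0.04 to 0.17, NAA30 from −0.09 to 0.06, NAA35 from −0.20 to 0.10 and NAA38 from −0.19 to 0.13. NAA15 ranged from −0.51 to −0.26, NAA16 from −0.42 to −0.00 and NAA40 from −0.41 to −0.09. NAA15 came closest to the threshold without pre-miR-203a library 2 (adjusted p = 0.057, limma). For NAA40 this was without empty-vector library 3 (adjusted p = 0.075, limma). The ratios NAA16 to NAA15, NAA35 to NAA30 and NAA38 to NAA30 ranged from −0.08 to 0.28, −0.26 to 0.06 and −0.24 to 0.14 on the log2 scale. That scaling moved the empty-vector means of NAA15 and NAA20 to 22.5 and 77.7 FPKM. The cause of these shifts was not tested. The shallowest library had 7632063 reads, and 3 libraries per group leave intervals wide enough that a missed threshold does not show equal levels.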
